A study of Mus musculus with 4 samples.

Results

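Cluster 70 is a small population of hindbrain neurons that the study named after Tfap2b and Cntnap5b. Its members were taken from the table of nuclei that accompanies the counts: every nucleus that passed the authors' quality filters and carries the label 70: Tfap2b/Cntnap5b. These are 131 of 39461 kept nuclei, and 131 of the 12539 nuclei annotated as neurons, which is 1.04% of them. The label was set by the authors' clustering of all libraries, so the levels of genes in the cluster describe it and were not tested against the other neurons.

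The study asked which cell groups of the dorsal vagal complex respond to joint stimulation of AgRP neurons and silencing of POMC neurons. Single-nucleus RNA-seq was run on hindbrain pieces holding the area postrema (AP) and nucleus tractus solitarius (NTS) from adult mice of both sexes on a C57BL/6 background, with 2 libraries from control and 2 from AgRP-Gq;POMC-Gi mice. Every animal received clozapine N-oxide (CNO), the ligand of the designer receptors, at 3 mg per kg, 1 h before the tissue was taken. AgRP-Gq;POMC-Gi mice carry AgRP-IRES-Cre+/-, hM3DGq fl/-, POMC-Dre+/- and hM4DGi fl/-. The control mice, labelled WT in the sample records, carry by the study's methods the same hM3DGq fl/- and hM4DGi fl/- alleles at Rosa26 without Cre or Dre, so that neither receptor is switched on. The stimulating receptor depends on Cre from the Agrp locus and the silencing one on Dre from a Pomc driver. By the study's methods the tissue came from 2 mice a group and was pooled within a condition, so the libraries of a group may not be separate animals. The tests below therefore measure the spread between libraries, which may be technical.

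TFAP2B is a transcription factor of the AP-2 family, which in the developing hindbrain and spinal cord marks dorsal neuron lineages, and CNTNAP5B is a membrane protein of the contactin-associated (Caspr) family of neuronal adhesion molecules. Neurons of the NTS and AP receive vagal sensory input, and most use either glutamate, loaded into vesicles by VGLUT2 (Slc17a6), or GABA and glycine, loaded by VGAT (Slc32a1). Many also release neuropeptides. When a neuron fires strongly it transcribes immediate early genes (IEGs) within minutes to hours, many of them through the calcium- and cAMP-responsive factor CREB, and IEG transcripts therefore serve as a record of recent activity.

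The cluster holds 11 and 23 nuclei in control libraries 1 and 2, and 54 and 43 nuclei in AgRP-Gq;POMC-Gi libraries 1 and 2. The summed unique molecular identifiers (UMIs) were 92564, 200398, 418776 and 299716 in the same order, so control values rest on far fewer nuclei. Nuclei had a median of 7514 UMIs (range 1939 to 26846) and 3189 genes, against 8720 UMIs in other neurons. No barcode was shared between libraries within the cluster, and 1 of the 131 barcodes also occurred among the kept nuclei of another library. Levels are given as UMIs per 1000000 UMIs of the same nuclei (CPM). The choroid plexus transcript Ttr was at 1103 CPM (control 2) and 697 CPM (AgRP-Gq;POMC-Gi 2) in the second libraries of both groups, and at 0 and 7.16 CPM in the first. The 3 choroid markers Ttr, Folr1 and Kl were split in the same way in other neurons, at 1010 and 587 CPM against 4.93 and 10.5 CPM. Xist was at 972, 908 and 981 CPM in the first 3 libraries and at 127 CPM in AgRP-Gq;POMC-Gi 2, where the Y-linked Eif2s3y was highest, at 113 CPM. Eif2s3y was at 21.6 and 14.97 CPM in the controls and at 54.9 CPM in AgRP-Gq;POMC-Gi 1, so it also differed between the groups without overlap (log2 2.31, edgeR, unadjusted p = 0.00123, adjusted p = 0.986), and the part of the sex mix of the libraries in the group values below was not tested. The median mitochondrial share was 0.180% and 0.172% in the control libraries and 0.0705% and 0.0975% under AgRP-Gq;POMC-Gi.

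Both label genes marked the cluster. Tfap2b (ENSMUSG00000025927, chromosome 1) was at 227 CPM in control 1, 484 CPM in control 2, 408 CPM in AgRP-Gq;POMC-Gi 1 and 290 CPM in AgRP-Gq;POMC-Gi 2. The groups overlapped. The mean was 352 ± 116 CPM (SD, n = 4 libraries), against 21.2 ± 2.73 CPM in other neurons, and 107 of 131 nuclei (81.7%, 95% exact binomial interval 74.0 to 87.9%) held a UMI. The share was 9.11% in other neurons and 0.178% in oligodendrocytes, which should lack the gene and had a median of 2460 UMIs. After thinning each nucleus to 2000 UMIs it was 50.8% against 3.89% of other neurons. Among the 134 neuronal clusters it ranked 2, behind cluster 86, Tfap2b/Col25a1, at 411 CPM. Cntnap5b (ENSMUSG00000067028, chromosome 1) was at 2344, 1961, 2316 and 2265 CPM in the 4 libraries. The mean of 2222 ± 177 CPM (SD, n = 4) was the highest of the neuronal clusters, with a UMI in 95.4% of nuclei against 59.2% of other neurons, where it reached 439 ± 39.6 CPM. Tfap2b exceeded 50% of its level here in 5 other clusters, and Cntnap5b in 6. The general neuronal genes Rbfox3, Snap25, Syt1 and Map2 summed to 2388 to 2885 CPM over the 4 libraries.

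The 25 genes that stood furthest above other neurons, among those detected in 20% or more of the nuclei and above other neurons in each library, ran from 29.7-fold for Slc39a12 to 5.05-fold for Cntnap5b. The next gene, Gas7, was at 5.04-fold. Ratios were taken on mean CPM plus an offset of 1. Slc39a12 (ENSMUSG00000036949, chromosome 2), a zinc importer of the ZIP family, was at 130 and 89.8 CPM in the controls and at 97.9 and 147 CPM under AgRP-Gq;POMC-Gi, with other neurons at 2.94 ± 0.574 CPM. The next neuronal cluster, 159 Casr/Slc6a2, reached 17.5 CPM, and Slc39a12 alone of the 25 genes had no other cluster above 50% of its level. It was found in 48 nuclei (36.6%, interval 28.4 to 45.5%) against 2.42% of other neurons and 1.31% of oligodendrocytes.

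Sox6, an SRY-box transcription factor, was at 357, 419, 296 and 531 CPM, 21.9-fold above other neurons, in 45.8% of nuclei. Only cluster 174, Prdm6/Grp, was higher, at 406 CPM. Sox6 was present in 3.84% of other neurons and 1.36% of oligodendrocytes. Lhfp was 11.8-fold above other neurons and Hmcn1, which encodes the extracellular matrix protein hemicentin 1, 11.0-fold, and both were higher still in other single clusters. Copines Cpne8 (8.24-fold, 76.3% of nuclei) and Cpne5 (5.12-fold), calcium-dependent phospholipid-binding proteins, and the neuropilin Nrp2 (5.30-fold, 86.3%), a semaphorin receptor, were also widely detected. The 2-pore potassium channel gene Kcnk13 (9.30-fold) and the ubiquitin ligase gene Rnf220 (8.56-fold) were among the 25 but were found in 49.7% and 88.4% of oligodendrocytes too. Gm12828 (9.49-fold), an antisense transcript that lies within the span of Rnf220, was found in 21.8% of oligodendrocytes, and its UMIs are uncertain because of this overlap. Of the 25 genes, 3 were higher here than in any other neuronal cluster (Slc39a12, Dsc2 and Cntnap5b).

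**Figure D1:**
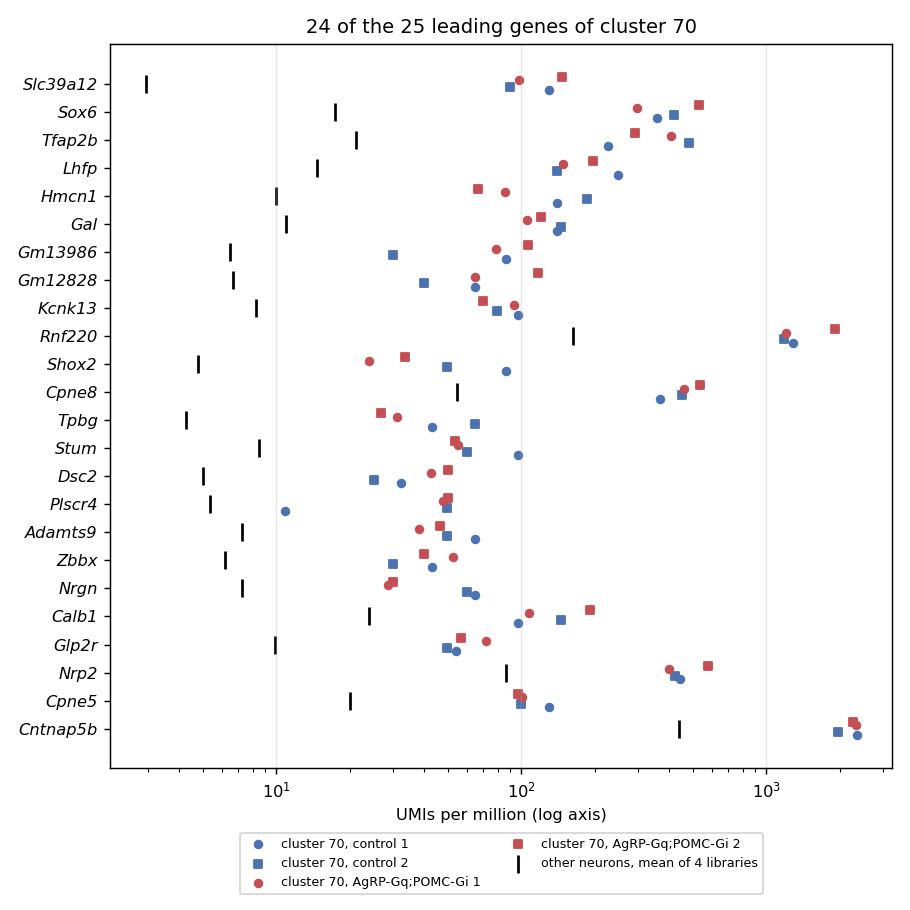
Each row is 1 gene, for 24 of the 25 leading genes, and the x axis gives UMIs per 1000000 on a log axis. Circles and squares are libraries 1 and 2 of control (blue) and AgRP-Gq;POMC-Gi (red) within cluster 70, and the black tick is the mean of other neurons. All 4 libraries lie to the right of the tick for each gene because the rule that chose the genes required it. Slc39a12 was at 89.8 to 147 CPM against 2.94 CPM.

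The glutamate transporter gene Slc17a6 was high in the cluster and the genes for GABA and glycine release were low. Slc17a6 (VGLUT2) was at 184 and 165 CPM in the controls and at 150 CPM in both AgRP-Gq;POMC-Gi libraries, a mean of 162 ± 15.8 CPM (SD, n = 4) against 75.3 ± 3.09 CPM in other neurons, and 81 nuclei (61.8%) held a UMI, against 35.4% of other neurons and 3.49% of oligodendrocytes. Slc32a1 (VGAT) was at 10.8, 9.98, 11.9 and 10.0 CPM, against 27.3 ± 1.07 CPM in other neurons, with a UMI in 10 nuclei (7.63%). The glycine transporter Slc6a5 (4.94 CPM) and the GABA-synthesizing enzymes Gad1 (8.99 CPM) and Gad2 (27.5 CPM) were 14.3-fold, 5.20-fold and 3.40-fold lower than in other neurons. All 4 libraries had Slc17a6 above Slc32a1. After thinning to 2000 UMIs the share of nuclei with Slc32a1 was 6.15%, against 5.59% of other neurons, so detection at matched depth gave no order for this gene, while Gad2 was at 3.85% against 16.7%. On the UMI scale, which is not corrected for gene length, the Slc32a1 level lay below that of Slc17a6 by a log2 difference of -3.80 ± 0.19 (SD over 4 libraries). Taken as a mean over nuclei rather than over summed UMIs, the difference was -2.97.

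Few nuclei held UMIs of both kinds. A Slc32a1 UMI was found in 6 of the 81 nuclei with Slc17a6 (7.41%) and in 8.00% of those without, and a Gad2 UMI in 13.6% and 8.00%. VGLUT1 (Slc17a7) had 0 UMIs in 131 nuclei, which allows a share of nuclei with a UMI of up to 2.29%, taking 3 counts of 131 as the limit for a count of 0 (counting error only). VGLUT3 (Slc17a8) was found in 9 nuclei (6.87%), at 14.3 CPM against 2.71 CPM in other neurons. Slc5a7, the choline transporter of cholinergic neurons, was 3.11-fold higher than in other neurons and found in 17.6% of nuclei, while its partners Chat and Slc18a3 were found in 1 and 2 nuclei. Of the catecholamine genes, Th was at 3.51 CPM and Dbh at 0.834 CPM, close to the other neurons at 3.34 and 1.37 CPM.

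Of 34 neuropeptide genes examined, 7 were detected in 10% or more of the nuclei. Of these 7, 5 were at least 2-fold above other neurons and none at least 2-fold below. Over all 8506 genes with that detection, 4.83% were 2-fold higher and 2.87% 2-fold lower. Galanin (Gal) was at 140 and 145 CPM in the controls and at 105 and 120 CPM under AgRP-Gq;POMC-Gi, 10.7-fold above other neurons, with a UMI in 62 nuclei (47.3%, interval 38.5 to 56.2%) against 5.52% of other neurons and 2.18% of oligodendrocytes. It ranked 4 of the 134 clusters, and cluster 53, Gal/Dkk2, was highest at 400 CPM.

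Somatostatin (Sst), an inhibitory peptide, was at 130, 170, 95.5 and 80.1 CPM, 3.93-fold above other neurons, in 42.7% of nuclei against 16.1% of other neurons and 5.77% of oligodendrocytes. Adcyap1, which encodes the peptide PACAP, was 4.81-fold higher (62.9 ± 17.1 CPM) and was found in 27.5% of nuclei. Tac1, the substance P precursor, was at 75.6, 105, 78.8 and 20.0 CPM, with AgRP-Gq;POMC-Gi 2 the lowest, and cholecystokinin (Cck) was 2.04-fold higher in 12.2% of nuclei. Penk and Agrp were detected at the level of other neurons. Penk was at 39.0 CPM against 42.8 CPM. Agrp was at 74.6 CPM against 88.1 CPM and was seen in 50.9% of other neurons, but its annotated span overlaps other genes on both strands, so its UMIs are uncertain. Detection stayed above that of other neurons when each nucleus was thinned to 2000 UMIs, at 22.3% against 1.86% for Gal and 18.5% against 5.73% for Sst (130 nuclei of the cluster, 1 left out).

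Gal and the other peptide genes were found together in part of the nuclei. Sst was found in 24 of the 62 nuclei with Gal (38.7%) and in 46.4% of the nuclei without it. Tac1 was found in 14.5% of nuclei with Gal and in 29.0% of those without, whereas it was found in 35.7% of the 56 nuclei with Sst and in 12.0% of those without. Slc39a12 was present in 34 of 62 nuclei with Gal (54.8%) and in 20.3% of nuclei without. The gut-hormone receptor gene Glp2r was present in 46.8% of nuclei with Gal and in 23.2% of those without. Nuclei with and without Gal had similar depth, with medians of 7894 and 7304 UMIs. These are descriptions of 131 sparse profiles, with no test.

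Among 42 receptors for peptides and hormones, 9 were found in 10% or more of nuclei, of which 2 were 2-fold higher and 1 was 2-fold lower than in other neurons. Over all 8506 genes with that detection the shares were 4.83% and 2.87%. Ntsr1, a receptor for neurotensin, was at 43.2, 20.0, 26.3 and 23.4 CPM, 7.94-fold above other neurons and the highest of the neuronal clusters, in 14.5% of nuclei. The galanin receptor gene Galr1 was 4.74-fold higher in 15.3% of nuclei, in a cluster that also transcribes Gal. The PACAP receptor gene Adcyap1r1 was 2.10-fold lower. Glp2r, which is not among the 42 but is one of the 25 leading genes, encodes the receptor for the intestinal peptide GLP-2 and stood at 54.0, 49.9, 71.6 and 56.7 CPM and 5.44-fold above other neurons. Among the 42, the insulin receptor gene Insr was at 114 CPM against 124 CPM in other neurons and was found in 68 nuclei (51.9%). Lepr was found in 2 nuclei, against 12.7% of other neurons. Glp1r was found in 1 nucleus and Calcr in 2, and both were rare in other neurons too, at 1.92% and 1.89%. The melanocortin receptor gene Mc4r was found in 6 nuclei (4.58%), at 8.06 CPM against 2.18 CPM.

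Of 35 monoamine and acetylcholine receptor genes, 9 were detected, with the nicotinic subunit gene Chrnb2 at least 2-fold higher and the serotonin receptor gene Htr4 at least 2-fold lower. The counts in this paragraph stand beside 4.83% higher and 2.87% lower over all 8506 detected genes. Of 24 glutamate receptor genes, 21 were found in 10% or more of nuclei and had a median log2 ratio to other neurons of -0.02. Only Gria1, an AMPA receptor subunit, was 2-fold higher: it was at 1167, 1831, 1449 and 1501 CPM, 3.85-fold above other neurons and in 97.7% of nuclei. Of the 21, 2 were more than 2-fold lower, Grik3 among them. Of 18 detected GABA and glycine receptor genes, 4 were 2-fold higher, namely Gabrq (5.57-fold), Gabrg1 (3.13-fold), Glra2 (2.23-fold) and Gabra2 (2.02-fold), and Glra1 and Gabra5 were lower. Among 25 detected ion channel genes, the T-type calcium channel gene Cacna1h (3.80-fold) and the A-type potassium channel gene Kcnd3 (2.19-fold) were higher. Of the 25, 5 were at least 2-fold lower, among them the sodium channel genes Scn1a, Scn8a and Scn9a and the potassium channel gene Kcnc1 (2.03-fold to 2.66-fold). The calcium-binding genes Calb1 (5.45-fold), Necab1 (3.82-fold) and Hpcal4 were the 3 of 6 detected members that were 2-fold higher.

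Of 68 hindbrain transcription factors, 15 were detected in 10% or more of nuclei, of which 6 were at least 2-fold higher and 2, Tcf4 and Npas3, at least 2-fold lower than in other neurons. Again 4.83% of all 8506 detected genes were 2-fold higher and 2.87% 2-fold lower. Besides Tfap2b and Sox6, Lmx1b, a factor of dorsal glutamatergic neurons, was 2.81-fold higher, in 27.5% of nuclei. Meis2 (2.62-fold) and Tfap2a (3.30-fold) were higher as well. Hoxb4, whose expression reaches the caudal hindbrain, was the single Hox gene of 7 detected that was 2-fold higher, at 68.9 ± 5.18 CPM against 26.7 ± 8.91 CPM. In the contactin and contactin-associated families, 12 of 13 genes were detected, with Cntnap5b and Cntn3 at least 2-fold higher and Cntnap5c at least 2-fold lower.

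The genes furthest below other neurons, among those at 50 CPM or more there, were led by Ebf2 and Zfpm2. Ebf2 had 1 UMI in the cluster and stood at 70.2 CPM in other neurons. Zfpm2 was at 4.11 CPM against 225 CPM, and Nfib at 1.79 CPM against 106 CPM. Pax2, which marks inhibitory lineages of the dorsal hindbrain and spinal cord, had a UMI in 1 of 131 nuclei against 26.8% of other neurons. Adarb2 (21.7 against 720 CPM), the guidance cue gene Sema3a and the proteoglycan enzyme gene Csgalnact1 were also among the 10 lowest, with Gm20713, 4930419G24Rik and Lrtm1. Values at 1 to 3 UMIs are near the limit of these 131 nuclei.

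The neuronal clusters closest to cluster 70 were found by correlating log2(CPM + 1) over 12115 genes. Cluster 85, Tfap2b/Glra3 (111 nuclei, r = 0.928), was nearest, followed by cluster 65, Eya1/Hs3st4 (r = 0.917), and cluster 53, Gal/Dkk2 (r = 0.916). The median over 133 other clusters was 0.851. These correlations are across genes within 1 experiment and share the same libraries. The other clusters named after Tfap2b, 41, 86, 95, 126 and 120, ranked 6, 26, 27, 49 and 63.

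Cluster 85 shared Tfap2b (318 CPM), Meis2 (843 CPM), Rnf220 (989 CPM) and Slc17a6 (138 CPM), but held Sox6 at 3.39 CPM, Gal at 2.26 CPM and Slc39a12 at 4.51 CPM. Cluster 53 shared Gal (400 CPM) and Hoxb4 (71.8 CPM), and had Tfap2b at 5.98 CPM and Sox6 at 1.5 CPM. Cluster 65 shared Adcyap1 (76.1 CPM) and Glp2r (37.6 CPM), with Tfap2b at 58.7 CPM. Sox6, at 395 CPM over all nuclei of cluster 70, was at 3.39, 0.917 and 1.5 CPM in clusters 85, 65 and 53.

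**Figure D2:**
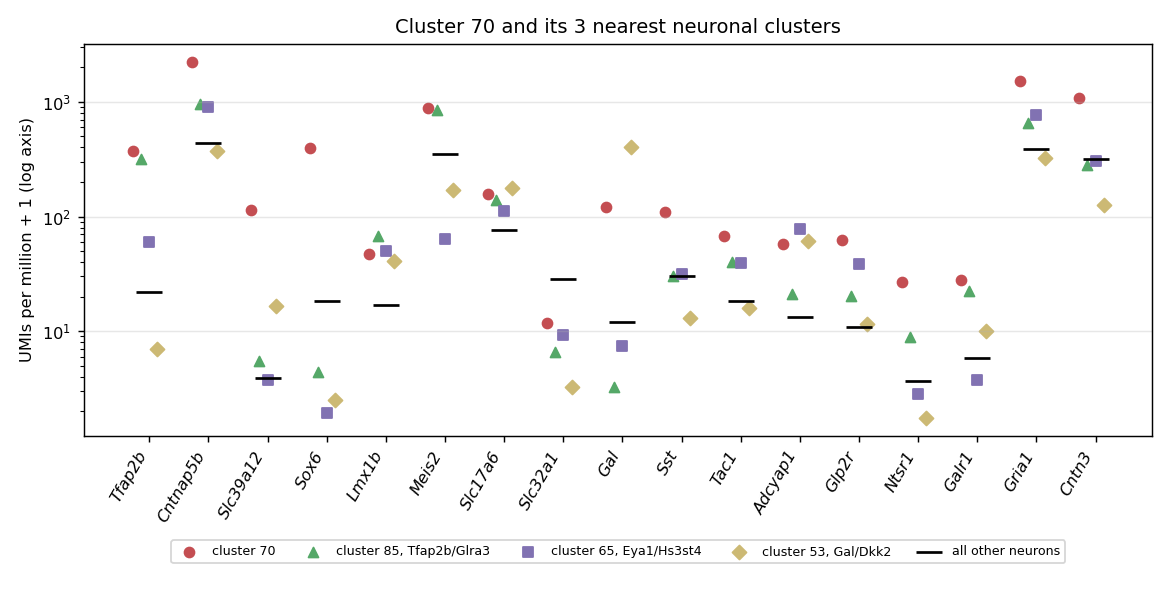
The y axis gives UMIs per 1000000 plus 1 on a log axis, summed over all nuclei of a cluster, for 17 genes. Red circles are cluster 70, the other coloured symbols its 3 nearest clusters, and the black dash the mean of all other neurons. Slc39a12 and Sox6 stood well above all 3 neighbours, whereas Slc17a6 was shared, at 110 to 176 CPM in the neighbours.

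Cluster 70 took a larger share of neurons in both AgRP-Gq;POMC-Gi libraries. It made up 0.445% (95% exact binomial interval 0.223 to 0.795%) and 0.841% (0.534 to 1.26%) of neurons in control 1 and 2, and 1.46% (1.10 to 1.90%) and 1.18% (0.857 to 1.59%) in AgRP-Gq;POMC-Gi 1 and 2. The groups did not overlap. The means were 0.643 ± 0.280% and 1.32 ± 0.197% (SD, n = 2 libraries each), a 2.15-fold difference of geometric means, and the exact two-sided permutation test gave p = 0.333, the smallest value that 2 against 2 libraries allow. Leaving out 1 library at a time left log2 differences of 0.64 to 1.56. As a share of all kept nuclei the log2 difference was 1.61. Neurons were 2470 of 9725 and 2736 of 10051 kept nuclei in the controls. They were 3696 of 9723 and 3637 of 9962 under AgRP-Gq;POMC-Gi, so this value also holds a difference in neuron yield. Clusters 65 and 53, among the nearest, also took larger shares of neurons in both AgRP-Gq;POMC-Gi libraries. Cluster 65 held 20 and 27 nuclei against 51 and 38, and cluster 53 held 17 and 19 against 43 and 72. Cluster 85 overlapped, at 17 and 38 against 44 and 12.

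**Figure D3:**
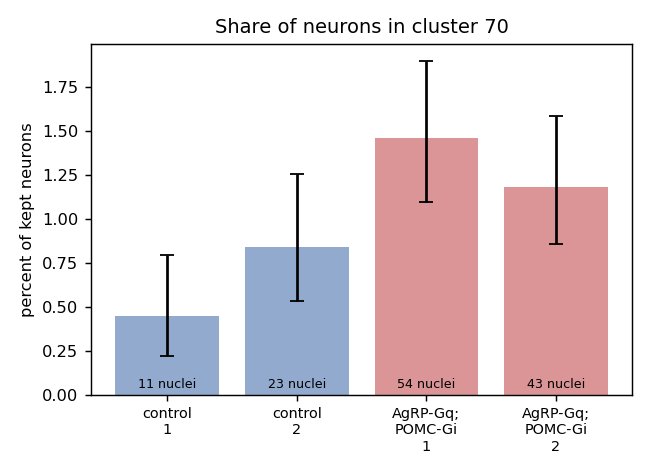
Bars give the percent of kept neurons in cluster 70 for each library, with 95% exact binomial intervals that cover counting error only and the number of nuclei at the foot of each bar. Both AgRP-Gq;POMC-Gi bars (1.46% and 1.18%) were above both control bars (0.445% and 0.841%), and the interval of control 2 overlapped those of both.

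The comparison of groups within the cluster found no gene past the threshold. UMIs were summed per library, and edgeR's quasi-likelihood test was run on the 11116 genes detected in 5% or more of the nuclei, 2 libraries against 2. At an adjusted p under 0.05, 0 genes differed (0%), and 512 genes (4.61%) had an unadjusted p under 0.05, 311 of them (2.80%) higher and 201 (1.81%) lower in AgRP-Gq;POMC-Gi. With library sizes in place of TMM factors, the split was 239 higher and 346 lower. DESeq2 also called 0 genes, with 60 at an unadjusted p under 0.05. The smallest adjusted p was 0.708, and single genes are given as values.

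The lowest p belonged to Spock3, which encodes a secreted proteoglycan (testican 3). It was at 551 and 778 CPM in the controls and at 1655 and 1585 CPM under AgRP-Gq;POMC-Gi, a log2 difference of 1.37 (SE 0.26, unadjusted p = 6.37e-05, adjusted p = 0.708, edgeR). The adjusted p ran from 0.000727 to 0.985 over the alternatives: it passed the threshold with library sizes in place of TMM factors, with no filter, without control 2 and without the nucleus with most IEG UMIs in each library. Fstl5 (log2 1.41), the sorting receptor gene Sorcs3 (1.44, and 2.28 without control 2), the synaptic adhesion genes Lrrc4 (1.15) and Nrcam (1.10) and the non-coding Gm32647 (1.07) were the next 5 on the higher side, and none of the 5 overlapped between groups. Such separation held for 15.3% of all tested genes, and the reverse order for 18.6%.

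On the lower side, Gm30382 was at 21.6 and 180 CPM in the controls and at 26.3 and 6.67 CPM under AgRP-Gq;POMC-Gi, so its difference of -2.63 rested on control 2, and without that library it was -0.10. Vtn, the vitronectin gene, had 10 and 3 UMIs in the controls and 0 and 1 in the other group. The 3 mural cell markers Pdgfrb, Rgs5 and Kcnj8, all detected, summed to 32.4 and 9.98 CPM in the controls and to 2.39 and 0 CPM in the other group, and their part in the value of Vtn was not tested. Capzb, Svil and the ribosomal protein genes Rpsa and Rps12 completed the 6. Ribosomal protein genes as a group were summed to 4829 and 4905 CPM in the controls and to 3345 and 4094 CPM under AgRP-Gq;POMC-Gi, and other neurons showed 3526, 3749, 2390 and 3383 CPM. The mitochondrial shares given above moved the same way in the cluster. Other neurons did so too, with medians of 0.105% and 0.123% in the controls and 0.0658% and 0.0936% under AgRP-Gq;POMC-Gi. The 4 oligodendrocyte markers Mog, Mbp, Mobp and Mag, all detected, summed to 194 and 165 CPM in the controls and to 105 and 107 CPM under AgRP-Gq;POMC-Gi. In other neurons they were also lower without overlap, at 127 and 104 CPM in the controls and 60.7 and 82.0 CPM under AgRP-Gq;POMC-Gi. The part of these markers in the group values was not tested.

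The genes that name the cluster and its transmitter had log2 differences near 0. Tfap2b had a log2 difference of 0.01 (SE 0.32), Cntnap5b of 0.22 (SE 0.23), Slc17a6 of -0.08 (SE 0.28) and Gal of -0.25 (SE 0.30), each with an adjusted p of at least 0.986 (edgeR). Of the 9 tested peptide genes, Sst alone had an unadjusted p under 0.05. Its log2 difference was -0.69 (SE 0.32, unadjusted p = 0.0434, adjusted p = 0.986, edgeR), and the groups did not overlap. Slc17a6 and Gal were also lower in both AgRP-Gq;POMC-Gi libraries without overlap. Of the 9 peptide genes, 3 separated downward and 1 upward, against 18.6% and 15.3% of all tested genes. All 25 leading genes were tested and 3 had an unadjusted p under 0.05: Hmcn1 was lower (140 and 185 CPM against 86.0 and 66.7 CPM), and Gm13986 (1.00) and Gm12828 (0.96) were higher.

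Of 15 tested peptide and hormone receptor genes, 2 were at an unadjusted p under 0.05, among them the glucocorticoid receptor gene Nr3c1 (21.6 and 20.0 CPM against 43.0 and 80.1 CPM, log2 1.61). Of 12 monoamine and acetylcholine receptor genes, the serotonin receptor gene Htr1f was at 335 and 250 CPM in the controls and at 186 and 120 CPM under AgRP-Gq;POMC-Gi (-0.74). Of 22 glutamate receptor genes Grin2b alone was at that level (0.60), and of 27 ion channel genes Kcnq5 alone. Of 18 GABA and glycine receptor genes, 2 were at that level, Gabra3 (0.74) and Gabrb2 (-1.09). Of 23 transcription factors, Ebf1 was higher (0.74) and Tfap2a, Rorb and Tcf4 were lower. Of all tested genes, 4.61% were at this level.

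The group difference in the cluster was then set against that in other neurons in 1 model. At an adjusted p under 0.05, 0 of 11116 genes differed (0%), and 490 (4.41%) had an unadjusted p under 0.05, 277 of them (2.49%) higher. Gm30382 had the lowest p (-2.70 on the log2 scale, SE 0.54, adjusted p = 0.198), and without control 2 its difference was -0.24. Spock3 was 1.09 higher (SE 0.23, adjusted p = 0.280), with a difference of 0.28 in other neurons. Gm32647 (0.99), Gm28905 (1.22), Nrcam (0.97), Fstl5 (1.08) and D130009I18Rik (2.00) followed on the higher side with adjusted p of 0.507 to 0.763. Without control 2 the difference was 2.30 for Gm28905, 1.61 for Nrcam and 2.90 for D130009I18Rik, which was at 1.22 without control 1 and 1.15 without AgRP-Gq;POMC-Gi 1. Without control 2, 14 genes passed the threshold, and without control 1, 7 did. The 5 genes Gpc5, Rorb, Adgrl2, Gabrb2 and Svil followed Gm30382 on the lower side with adjusted p of 0.507 to 0.763. Without control 2 the difference moved from -2.50 to -0.56 for Rorb, from -2.03 to -0.33 for Adgrl2 and from -1.18 to -0.67 for Gabrb2. Without control 1 it moved from -1.63 to -0.99 for Gpc5. Without AgRP-Gq;POMC-Gi 1 the differences were larger, at -4.04 for Rorb, -4.00 for Adgrl2 and -4.02 for Gm30382. For Svil the difference moved from -3.71 to -12.28 without that library. The Svil mean in the AgRP-Gq;POMC-Gi group was 2.39 CPM, near the floor, so the size of this value is not reliable.

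The study scored the activity of clusters with 10 IEGs, which were left out of the variable genes used for clustering. Of these, 8 passed the filter in cluster 70, and Fosl2 and Gem fell under 5% of nuclei. Homer1, 1700016P03Rik and Nr4a1 had an unadjusted p under 0.05 and were all higher in the AgRP-Gq;POMC-Gi group, against 2.80% of all tested genes in that direction, and none passed after adjustment. The list was used by the study on these same samples, so it is not independent evidence of direction. The median log2 difference of the 8 was 0.32, against 0.04 for all tested genes.

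Homer1, a postsynaptic scaffold gene with an activity-induced short form, had 5 UMIs in each control library, 33 in AgRP-Gq;POMC-Gi 1 and 34 in AgRP-Gq;POMC-Gi 2. Its level was 54.0 and 25.0 CPM in the controls and 78.8 and 113 CPM under AgRP-Gq;POMC-Gi, with no overlap. The log2 difference was 1.54 (SE 0.46, unadjusted p = 0.00374, adjusted p = 0.986, edgeR), and the difference from other neurons, which stood at 0.05, was 1.52 (SE 0.47, unadjusted p = 0.00285, adjusted p = 0.995). Homer1 UMIs were found in 3 of 11, 4 of 23, 18 of 54 and 21 of 43 nuclei, but 1 nucleus held 14 of the 33 UMIs of AgRP-Gq;POMC-Gi 1. With the nucleus richest in IEG UMIs left out of each library, Homer1 was at 24.1 and 26.8 CPM in the controls and at 46.2 and 110 CPM in the other group (log2 1.61), still with no overlap. A negative binomial mixed model fitted to single nuclei, with library as a random effect, gave 1.45 (SE 0.61) for Homer1, 1.05 (SE 1.23) for Nr4a1 and 1.02 (SE 1.07) for 1700016P03Rik, and of these 3 only Homer1 had an unadjusted p under 0.05. Without control 2 the edgeR difference was 0.97.

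Nr4a1, an orphan nuclear receptor gene induced by activity, was at 21.6 and 20.0 CPM in the controls and at 43.0 and 56.7 CPM under AgRP-Gq;POMC-Gi (log2 1.34, SE 0.56, unadjusted p = 0.0299, adjusted p = 0.986, edgeR). 1700016P03Rik (ENSMUSG00000085609), the host transcript of the microRNAs miR-212 and miR-132, was at 64.8 and 39.9 CPM in the controls and at 134 and 66.7 CPM in the other group (1.21, SE 0.47, unadjusted p = 0.0209, adjusted p = 0.986). Without AgRP-Gq;POMC-Gi 1 the difference was 0.50. The share of nuclei with a UMI overlapped between groups for both genes, at 18.2% and 8.70% in the controls against 9.26% and 11.6% for Nr4a1 and at 36.4% and 13.0% against 13.0% and 16.3% for 1700016P03Rik. With the nucleus richest in IEG UMIs left out of each library the groups overlapped for 1700016P03Rik, at 36.2 and 21.4 CPM against 77.9 and 30.9 CPM, and not for Nr4a1, at 12.1 and 10.7 CPM against 34.1 and 34.3 CPM. The Nr4a1 control values rest on 1 and 2 UMIs here, and on 2 and 4 UMIs with all nuclei. In AgRP-Gq;POMC-Gi 1 the nucleus left out held 4 of 18 Nr4a1 UMIs, and nuclei with 6 stayed in. The repeat therefore does not measure how far Nr4a1 rests on single nuclei. In other neurons 1700016P03Rik was also higher, by 0.53, and the difference between the 2 differences was 0.65 (edgeR, adjusted p = 1.00). Fos itself, the classical activity marker, had 4 and 1 UMIs in the controls and 9 and 7 under AgRP-Gq;POMC-Gi, and its control libraries, at 43.2 and 4.99 CPM, enclosed the others at 21.5 and 23.4 CPM. Jun, Junb, Nr4a3 and Btg1 had log2 differences between -0.49 and 0.19. Btg1 was lower in both AgRP-Gq;POMC-Gi libraries without overlap (means of 42.0 CPM in the controls and 24.8 CPM). Of the 8 tested IEGs, 3 thus separated upward and 1 downward, against 15.3% and 18.6% of all tested genes.

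A wider list of 60 activity genes gave 28 tested members, of which Tiparp alone had an unadjusted p under 0.05. Of all tested genes, 4.61% did. Tiparp, which encodes an ADP-ribosyltransferase, had 0 and 2 UMIs in the controls and 27 and 13 under AgRP-Gq;POMC-Gi (3.04, SE 0.78, unadjusted p = 0.00129, adjusted p = 0.986). The activity-regulated peptide-processing genes Pcsk1 (4.16-fold) and Scg2 (2.35-fold) and the neurotrophin gene Bdnf (3.62-fold) were higher in the cluster than in other neurons in both groups. In clusters 85 and 53 the groups overlapped for Homer1, Nr4a1, 1700016P03Rik, Fos and Tiparp. In cluster 65 they overlapped for the last 3, while Homer1 (94.5 and 67.2 CPM in the controls, 57.9 and 54.8 CPM in the other group) and Nr4a1 were lower under AgRP-Gq;POMC-Gi in both libraries. These differences between clusters were not tested. In cluster 85, Homer1 stood at 28.4 and 101 CPM in the controls and at 65.8 and 56.4 CPM under AgRP-Gq;POMC-Gi.

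**Figure D4:**
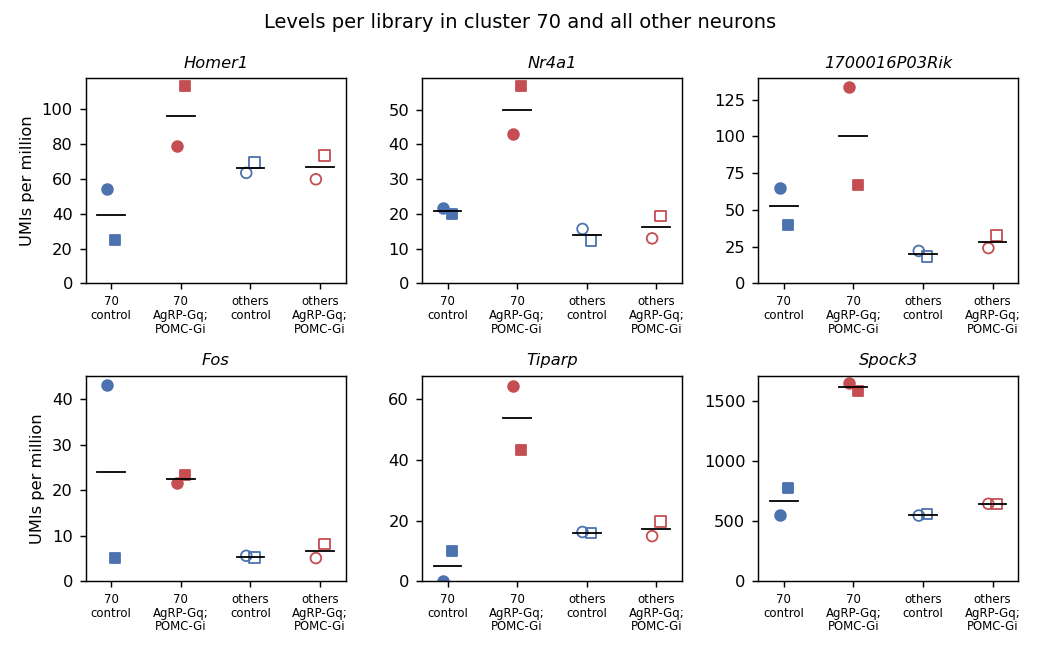
Each panel gives UMIs per 1000000 for 1 gene, with filled symbols for cluster 70, open symbols for all other neurons, blue for control and red for AgRP-Gq;POMC-Gi libraries, and a black line at each mean of 2. In cluster 70 the red points lay above the blue ones for Homer1, Nr4a1, 1700016P03Rik, Tiparp and Spock3 but not for Fos, and no gene passed an adjusted p of 0.05.

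Counted nucleus by nucleus, the 10 IEGs together had 28 and 38 UMIs in the controls and 178 and 99 under AgRP-Gq;POMC-Gi. The share of nuclei with any of these UMIs was 54.5% and 56.5% against 55.6% and 67.4%. In AgRP-Gq;POMC-Gi 1, 1 nucleus of 7754 total UMIs held 87 of the 178 (48.9%), among them 24 of 1700016P03Rik, 23 of Gem, 14 of Homer1, 6 of Fos and 12 of Tiparp besides. In control 1, 1 nucleus held 15 of 28. At least 10 IEG UMIs were held by 1 of 11 and 1 of 23 nuclei in the controls and by 3 of 54 and 3 of 43 under AgRP-Gq;POMC-Gi, so the shares overlapped between groups. Nr4a1 was found in 12 of 21 nuclei with 1700016P03Rik (57.1%) and in 1.82% of the other nuclei, and in 7 of 46 nuclei with Homer1.

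**Figure D5:**
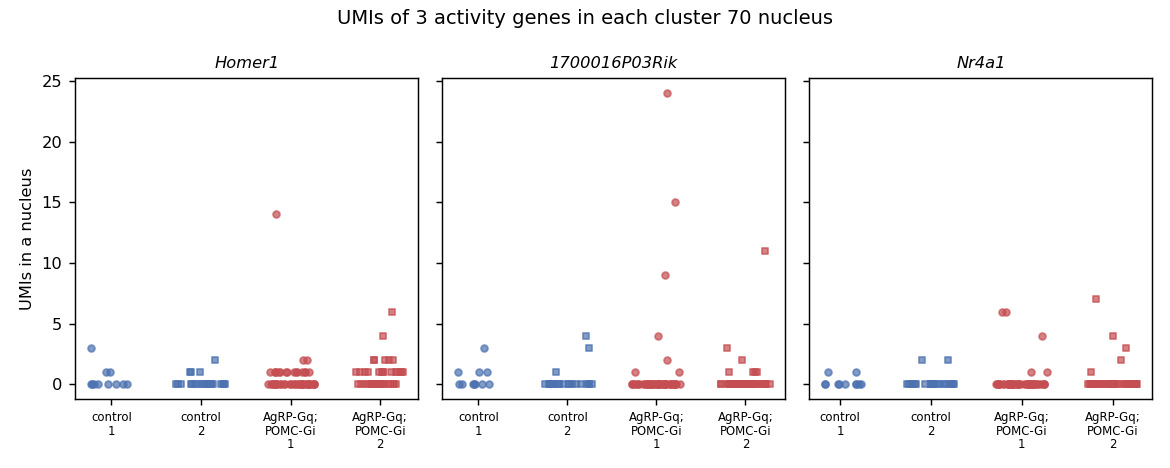
Each point is 1 nucleus of cluster 70 and the y axis gives its UMIs of Homer1, 1700016P03Rik or Nr4a1, with libraries on the x axis and horizontal jitter. The highest point of 1700016P03Rik, 24 UMIs in AgRP-Gq;POMC-Gi 1, makes up 42.9% of that library's UMIs of the gene, while Homer1 points above 0 are spread over 18 and 21 nuclei of the AgRP-Gq;POMC-Gi libraries.

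The sequences behind these activity genes are shown because 1700016P03Rik is read here in place of 2 microRNAs, and because CREB sites near the start of a gene are a textbook route to the induction of activity genes. The transcript lies at chr11:75172560-75177633 (GRCm38, plus strand) and spans the precursors of both microRNAs. The 3′ capture used here counts the host transcript, not the mature microRNAs. In the RefSeq table for GRCm38.p6 the mature 3p arms lie at chr11:75173723-75173744 (miR-132-3p) and chr11:75173443-75173464 (miR-212-3p). Capitals mark the seed, bases 2 to 8.
mmu-miR-132-3p: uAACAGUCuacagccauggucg
mmu-miR-212-3p: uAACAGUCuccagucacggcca
Both 3p arms share the seed AACAGUC. The 5p arms do not share theirs.
mmu-miR-132-5p: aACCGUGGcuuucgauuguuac
mmu-miR-212-5p: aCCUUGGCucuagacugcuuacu

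The CREB recognition element is TGACGTCA, and its 2 overlapping half-sites read TGACG and, on the other strand, CGTCA. The 100 bases before the RefSeq start of each gene were searched on both strands in 32851 promoters of GRCm38.p6. The full element was found in 1.15% of them and a half-site in 10.5%. Of 8 IEGs with a promoter in the table, 3 had a half-site there, and of 22 leading genes with one, 0 did. A gene was counted if any of its promoters matched, so these counts are not on the per-promoter scale of the 10.5%. 1700016P03Rik and Gem had no promoter in the table, so these 8 are not the 8 tested IEGs. The windows below are shown for the 2 IEGs with a half-site and an unadjusted p under 0.05, and for the peptide gene Sst. The remaining IEG with a half-site had no such p and is not shown. Capitals mark each match, 5′ to 3′ on the gene's strand.
Homer1, chr13:93303657-93303756, plus strand: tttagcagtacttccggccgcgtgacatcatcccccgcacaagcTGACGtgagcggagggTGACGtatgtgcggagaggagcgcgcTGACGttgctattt
Nr4a1, chr15:101266746-101266845, plus strand: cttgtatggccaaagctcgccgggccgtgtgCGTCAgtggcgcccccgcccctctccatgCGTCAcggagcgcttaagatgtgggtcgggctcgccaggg
Sst, chr16:23890845-23890944, minus strand: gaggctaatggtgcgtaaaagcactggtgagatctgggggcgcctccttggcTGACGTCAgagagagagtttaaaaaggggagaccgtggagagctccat
Homer1 held 3 half-sites and Nr4a1 2, while Sst held the full element. A match of letters is a description of the window and not a measured site, and the part of such sites in the group values was not tested.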

How the data were processed

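The deposited matrices hold raw UMI counts per gene and nucleus from 4 10x Genomics 3′ libraries of sorted DRAQ5-positive nuclei. Per the labels' processing notes the authors used Cell Ranger 7.0.0 and Seurat 4.3.0, with GRCm38 (mm10). The methods state that nuclei with fewer than 800 UMIs, fewer than 500 genes or more than 10% mitochondrial RNA were removed and that doublets were detected with scDblFinder, and that IEGs were left out of the genes used for clustering. Whether intronic reads were counted is not given in the sources used here. UMIs and genes per nucleus, the deposited mitochondrial percent and the authors' cluster labels came from the table of nuclei. Its columns of IEG scores and categories hold the authors' own comparison and were not used. All 44303 barcodes matched that table in UMI and gene totals.

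UMIs of the 131 nuclei were summed per library and scaled to UMIs per 1000000 (CPM). Sums rather than nuclei were tested, since nuclei of 1 library are not replicates, with edgeR 4.0.16 (glmQLFit, TMM factors, genes with a UMI in 5% of nuclei, Benjamini-Hochberg adjustment over all genes tested), with an interaction term against the other 12408 neurons. DESeq2 1.42.0, other filters, no TMM factors, a replicate block, glmmTMB 1.1.9 and leaving out each library were alternatives. The mixed-model program of the study's methods was not used; glmmTMB stood in for it. The scripts were tested on simulated data. The edgeR test prints no SE, so each SE given with it is the absolute log2 difference divided by the square root of the F statistic. Shares of nuclei have exact (Clopper-Pearson) intervals, which cover counting error only. The members and gene lists were chosen with earlier results of these data known. Genes were named by rule: the 25 highest and 10 lowest ratios to other neurons, list members at 2-fold or more, the 10 IEGs and the 6 lowest p in each direction. List members named for a group value, Tiparp among them, genes named for scarcity, Insr, the mural and choroid markers and the ribosomal protein genes were chosen after their values were seen. A repeat without the nucleus with the most IEG UMIs in each library was also chosen after seeing the data. Some genes that these rules name are not reported here. Gene positions are from GENCODE M21 (32158 of 32285 genes matched by identifier) and sequences from RefSeq tables.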

Additional observations from a re-analysis of the deposited data

How the results depend on the processing

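The number of genes past an adjusted p of 0.05 between groups, 0 as reported, was 0 with DESeq2, with edgeR's own expression filter and with a UMI required in 10% of nuclei. It was 2 with library sizes in place of TMM factors (Spock3 and Gm30382), 7 with no filter, 2 (the same pair) without the nucleus with the most IEG UMIs in each library, an alternative chosen after seeing the data, and 0 to 8 without 1 library (6 without control 1, 8 without control 2, 0 without either AgRP-Gq;POMC-Gi library). With library sizes the median log2 difference of all genes moved from 0.044 to -0.065 and the share of higher genes among those at an unadjusted p under 0.05 fell from 60.7% to 40.9%. Genes that differed from other neurons numbered 0 with the 10% filter, 1 with library sizes, 4 with no filter and 0 to 14 without 1 library. The 3 IEGs at an unadjusted p under 0.05 became 0 with DESeq2, 2 with library sizes, 1 in the mixed model and 0 to 2 without 1 library (0 without control 2, 1 without AgRP-Gq;POMC-Gi 2). The log2 difference between Slc32a1 and Slc17a6 was -2.97 as a mean over nuclei.

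Nothing in the labels says that the replicate numbers pair the libraries. Over 3811 genes, deviations from group means correlated at -0.00664 between same-numbered libraries. With 2 libraries a group this value is the same for both numbers by construction. The choroid markers were nevertheless split by number in both groups. With the number as a replicate block 1 gene (Gm30382) passed in place of 0 and the 3 IEGs stayed 3.

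Among 32 differences of 26 single genes (in the cluster, or from other neurons), 10 of 288 values under an alternative changed sign, all of them of Fos, Nr4a3, Jun or Junb. The genes other than the IEGs were picked for their low p in these same libraries. Their signs were therefore likely to hold, and the low count of changes is no measure of robustness. Nr4a3 was -0.0024 with DESeq2, and Jun 0.107 with DESeq2 and 0.0392 with no filter. Without 1 library the log2 difference ran from -0.76 to 2.14 for Fos, -0.76 to 1.16 for Nr4a3, -1.79 to 4.82 for Jun and -0.86 to 0.53 for Junb. With 11 nuclei in control 1, its 0 to 4 UMIs of each of these 4 genes limit what could be seen.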
